A study of Arabidopsis thaliana with 3 samples.

Results

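Mitogen-activated protein kinase (MAPK) cascade genes of Arabidopsis thaliana were followed in seedlings of the wild type (WT) and of the dss1(I) mutant that had both been kept on hydrogen peroxide. The genes were taken from the deposited comparison of dss1(I) with WT as those whose description names a mitogen-activated protein kinase, or whose symbol is MPK, MKK or MAPKKK with a number. The rule found 5 of the 2762 genes of that table: the MAPK kinase kinase genes MAPKKK17, MAPKKK18, MAPKKK19 and MEKK2, the last described as MAPKKK 9, and the MAPK kinase gene MKK9. The table holds only genes that had already been called changed between these same libraries, so the members were chosen by the contrast described here, and their differences are given as descriptions with no test.

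WT was Columbia-0. The dss1(I) plants were a homozygous CRISPR/Cas9 line, dss1(I)del25, carried in the labels as a knockdown of DSS1(I), which encodes a small acidic protein of the proteasome lid. Seedlings of both genotypes grew for 14 days on MS agar with 1% sucrose and were then moved to 10 mM H2O2 for 3 more days, so no untreated sample stands beside them. Each genotype gave 1 library, made from the combined RNA of 3 independent experiments, and 11033843 dss1(I) reads and 9394592 WT reads were assigned to genes. With 1 library per genotype there is no replicate check on any difference, and the 95% intervals below cover the counting of reads only. The dss1(V) library of the series was not analysed here.

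In a MAPK cascade, a MAPK kinase kinase phosphorylates a MAPK kinase, which then phosphorylates a MAPK. In plants such cascades carry signals from pathogen receptors, abscisic acid, ethylene and reactive oxygen species to transcription factors and enzymes. Hydrogen peroxide is among the signals known to activate the Arabidopsis MAPKs MPK3 and MPK6. MAPKKK17 and MAPKKK18 belong to an abscisic acid cascade that runs through MKK3. MKK9 phosphorylates MPK3 and MPK6 and is known from ethylene and camalexin production. MEKK2, also called SUMM1, is known from the defence that sets in when the MEKK1, MKK1/MKK2 and MPK4 cascade is lost.

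The 250 bases upstream of the annotated start of MAPKKK17, MAPKKK18 and MAPKKK19 are shown because they share letters that those of MKK9 and MEKK2 lack. Capitals mark every match, on either strand, to ACGTG, the core of the element bound by abscisic acid response factors. The sequences come from the RefSeq TAIR10.1 assembly, at chr2:13800100-13800349 on the minus strand, chr1:1469291-1469540 on the plus strand and chr5:26772394-26772643 on the plus strand, and none of these windows overlaps another annotated gene.
MAPKKK17: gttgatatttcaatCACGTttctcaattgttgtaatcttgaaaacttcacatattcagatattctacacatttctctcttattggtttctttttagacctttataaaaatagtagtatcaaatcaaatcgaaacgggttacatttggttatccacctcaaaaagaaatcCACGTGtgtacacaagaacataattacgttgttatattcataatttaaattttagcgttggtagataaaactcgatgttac
MAPKKK18: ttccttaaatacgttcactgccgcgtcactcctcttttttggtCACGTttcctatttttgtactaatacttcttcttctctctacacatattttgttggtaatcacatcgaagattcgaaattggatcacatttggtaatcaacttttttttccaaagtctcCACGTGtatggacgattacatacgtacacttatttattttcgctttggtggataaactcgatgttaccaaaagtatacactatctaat
MAPKKK19: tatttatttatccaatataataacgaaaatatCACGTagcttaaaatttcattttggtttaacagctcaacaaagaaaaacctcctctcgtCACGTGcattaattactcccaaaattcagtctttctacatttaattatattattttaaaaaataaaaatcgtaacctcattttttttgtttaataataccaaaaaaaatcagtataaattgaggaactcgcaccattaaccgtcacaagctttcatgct
Each of the 3 windows held 2 marked stretches, and 1 stretch in each was the palindrome CACGTG, which matches ACGTG on both strands. The palindrome began 81 bases before the start of MAPKKK17, 88 bases before that of MAPKKK18 and 159 bases before that of MAPKKK19. Over the upstream windows of all 27443 protein-coding genes, 22.9% held ACGTG and 6.49% held CACGTG. Among the table's genes the shares with ACGTG were 29.6% for those lower in dss1(I) and 22.6% for those higher. The shares with CACGTG were 10.4% for those lower and 6.25% for those higher. A second set of letters, TTGAC, the core of the W-box bound by WRKY factors, was in none of the 5 members' windows, against 44.9% of all genes. Among the table's genes TTGAC was in 51.6% of those lower in dss1(I) and 41.9% of those higher. The search for ACGTG and CACGTG was added after the members' values were known, and a match shows letters, not a bound site.

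The upstream windows of the other members, chr1:27640644-27640893 on the minus strand for MKK9 and chr4:5391576-5391825 on the minus strand for MEKK2, held neither motif and are shown for comparison.
MKK9: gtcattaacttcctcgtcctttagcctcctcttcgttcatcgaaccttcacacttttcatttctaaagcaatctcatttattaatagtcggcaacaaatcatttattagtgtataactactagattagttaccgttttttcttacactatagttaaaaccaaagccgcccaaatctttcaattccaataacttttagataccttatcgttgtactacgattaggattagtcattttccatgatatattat
MEKK2: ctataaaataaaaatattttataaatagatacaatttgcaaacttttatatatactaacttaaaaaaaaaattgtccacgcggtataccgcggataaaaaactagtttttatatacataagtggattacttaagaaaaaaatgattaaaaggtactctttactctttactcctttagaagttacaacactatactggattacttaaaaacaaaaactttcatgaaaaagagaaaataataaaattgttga
The activation loop is the stretch of a MAPK kinase that the kinase above it phosphorylates, at a serine or threonine on either side of 5 other residues. The coding bases of the loop of MKK9, at chr1:27639716-27639799 on the minus strand, are shown with the codons of serine 195 and serine 201 in capitals.
MKK9 loop: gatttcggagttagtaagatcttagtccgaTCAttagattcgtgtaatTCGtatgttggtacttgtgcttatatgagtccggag
A serine or threonine pair at this distance from the end of the loop was present in 9 of the 10 Arabidopsis MAPK kinases, and MKK10 lacked it.

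All 5 members passed a filter of at least 10 scaled reads in at least 1 library, but MAPKKK17, MAPKKK18 and MAPKKK19 passed only through WT. Scaled reads are read counts that had been adjusted for library size, and a log2 ratio is the log2 of the scaled count plus 1 in dss1(I) over the same in WT. Of the members, 4 were lower in dss1(I) by at least 1 on the log2 scale and 1 was higher. Over the whole table, 51.0% of the 2620 genes passing the filter were that far lower and 48.1% that far higher. The rule drew on this contrast, so nothing is read from the members' count against these shares.

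MAPKKK19 (AT5G67080, chr5:26772644-26773979, plus strand) has a single exon in the annotation and 1336 bp in the file, and encodes a protein of 344 residues. It had 28 reads in WT and 4 in dss1(I), which are 30.2 and 3.70 scaled reads and 2.23 and 0.271 FPKM (fragments per kilobase of gene, scaled to the size of the library). The level was 6.63-fold lower in dss1(I), a log2 ratio of -2.73 with a counting interval of -5.00 to -1.51. The gene was thus close to undetected in the mutant library, and its interval spans more than 3 log2 units.

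MAPKKK18 (AT1G05100, chr1:1469541-1470881, plus strand) lies in the abscisic acid cascade and is 1 exon of 1341 bp, encoding 339 residues. It had 37 reads in WT and 6 in dss1(I), or 39.9 and 5.56 scaled reads and 2.94 and 0.406 FPKM. The log2 ratio was -2.64 (-4.38 to -1.58), a 6.24-fold lower level. MAPKKK17 (AT2G32510, chr2:13798561-13800099, minus strand), its closest relative, is 1 exon of 1539 bp and encodes 372 residues. It had 12 reads in WT and 2 in dss1(I), or 12.9 and 1.85 scaled reads and 0.830 and 0.118 FPKM. The log2 ratio was -2.29 with an interval of -6.00 to -0.64, so that of the lower members MAPKKK17 had the fewest reads and the widest interval. The 3 intervals overlap, and counting error does not separate the ratios of MAPKKK17, MAPKKK18 and MAPKKK19.

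How near these genes lay to the edge of what the table lists can be read from other genes with the same number of WT reads. The table's 14 other lower genes with 12 WT reads had 0 to 3 reads in dss1(I), so MAPKKK17, with 2, was 1 read inside that edge. The 7 other lower genes with 37 WT reads had 2 to 19 in dss1(I) beside the 6 of MAPKKK18. The 11 with 28 WT reads had 2 to 13 beside the 4 of MAPKKK19. MAPKKK18 and MAPKKK19 were therefore further inside the listed range than MAPKKK17.

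MKK9 (AT1G73500, chr1:27639091-27640643, minus strand), the MAPK kinase of the set, is also 1 exon, of 1553 bp, and encodes 310 residues. It had 966 reads in WT and 487 in dss1(I), which are 1042 and 452 scaled reads. The log2 ratio was -1.20 (-1.37 to -1.05), a 2.30-fold lower level, with the narrowest interval among the members. Scaled to the library totals it stood at -1.22, and to equal totals over the table's genes at -1.05. Set to a median ratio of 0 over the table's genes, which raises the median over all of them by 1.02, MKK9 stood at -0.18. In that setting MAPKKK17, MAPKKK18 and MAPKKK19 were still lower by more than 1. The setting assumes that most called genes did not change, so it does not rank the members by how steady their ratios are. Per length MKK9 was also the highest member, at 66.2 FPKM in WT and 28.4 in dss1(I). In WT the order of levels was MKK9, MAPKKK18, MAPKKK19, MEKK2 at 1.96 FPKM, and MAPKKK17, and in dss1(I) MEKK2 stood second at 5.54 FPKM. With 1 library each, no spread is available to separate neighbours in this order.

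MEKK2 (AT4G08480, chr4:5387351-5391575, minus strand) was the member higher in dss1(I). It has 9 exons that sum to 3207 bp in the file, and its protein of 773 residues is the longest of the set. It had 59 reads in WT and 196 in dss1(I), or 63.6 and 182 scaled reads. The log2 ratio was 1.50 (1.09 to 1.96), a 2.83-fold higher level. MEKK2 stands in tandem with MEKK1 and MEKK3 on chromosome 4, neither of which was in the table.

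**Figure D1:**
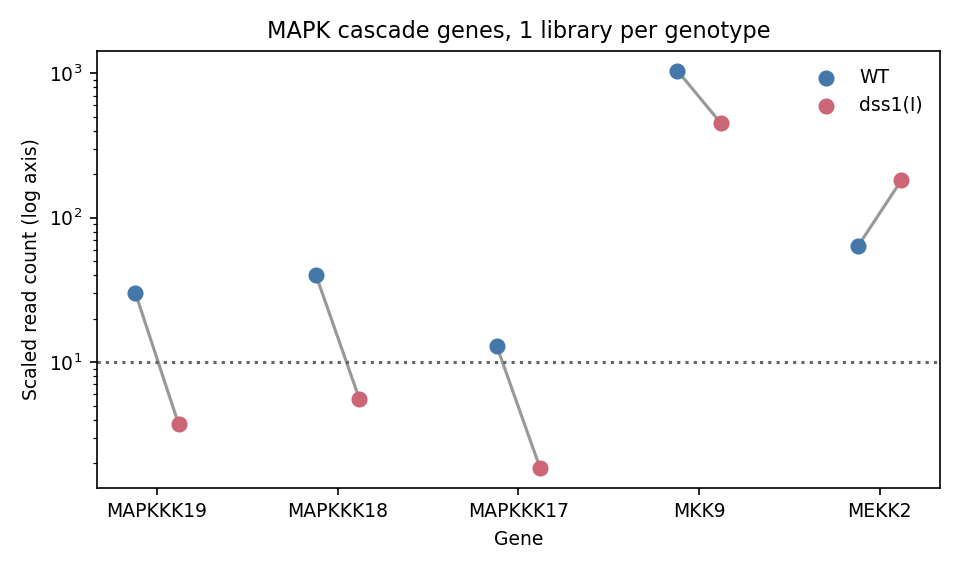
Scaled read counts (log axis) of the 5 MAPK cascade genes in the WT and dss1(I) libraries, 1 point per library, with the filter of 10 scaled reads dotted. MAPKKK17, MAPKKK18 and MAPKKK19 fall from above the dotted line in WT to below it in dss1(I), MKK9 is lower at a much higher level, and MEKK2 is higher.

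Part of the reads of MEKK2 and MAPKKK19 is uncertain because these genes overlap annotated genes on the opposite strand. The long non-coding RNA AT4G05545 covers the 3′ end of MEKK2, and AT5G67090 reaches into the 3′ end of MAPKKK19. Whether reads were counted by strand is not given in the sources used here, so reads over the shared bases, 41 of the 1336 bp of MAPKKK19 and 215 of the 3207 bp of MEKK2, cannot be told apart. Of the 3158 windows of 50 bases in the MEKK2 transcript, 7.50% also occur exactly in AT4G05545, MEKK3 or MEKK1, while no such window of MAPKKK17, MAPKKK18, MAPKKK19 or MKK9 recurs among the other genes.

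The closest relative by protein sequence was in the table for MAPKKK17 and MAPKKK18 and for no other member. These genes, both lower, share 71.4% of their residues. MAPKKK19 shares 76.6% with MAPKKK20 and 63.4% with MAPKKK21, neither of which was in the table, but 38.6% with MAPKKK18 and 35.2% with MAPKKK17. MKK9 shares 80.8% with MKK7 and MEKK2 shares 74.5% with MEKK1, which were not in the table either. The 4 lower members all lack introns, as do 9 of the 20 MAPKKK genes and 5 of the 10 MKK genes of the pathway list. In the table, 28.5% of the lower and 15.1% of the higher protein-coding genes have a single exon. Single-exon genes are also shorter, with a median of 1237 bp against 2047 bp for genes with several exons. Among genes of about the length of the 4 lower members, this difference was not seen. There, 75.6% of 131 single-exon genes and 78.5% of 381 genes with several exons were lower.

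Gene length differed between the genes that were lower and those that were higher throughout the table. By eighths of the table ordered by length, the share of genes lower in dss1(I) was 88.1% in the shortest, 92.0% in the next, and 0.306% in the longest. The 4 lower members are between 1336 and 1553 bp and MEKK2 is 3207 bp, so each lies on the side where most genes within 10% of its length lie. For MKK9 this depended on the width of the window, as 46% of the 50 genes nearest in length were lower, against 73.0% within 10%. What part gene length, or what moves with it, has in the members' ratios was not tested.

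**Figure D2:**
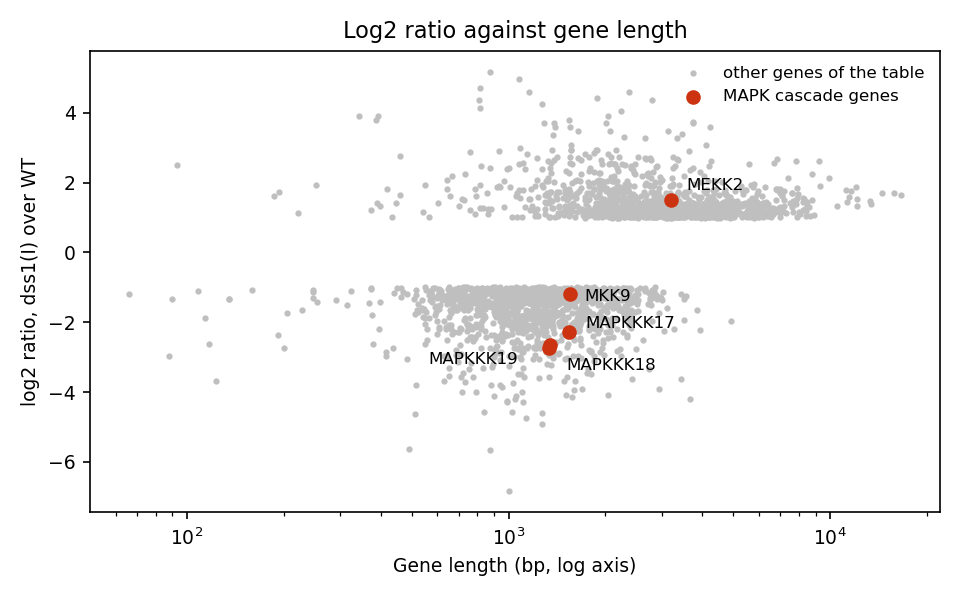
Log2 ratio of dss1(I) over WT against gene length (log axis) for the genes of the table that pass the filter, with the 5 MAPK cascade genes in red. The band around 0 is empty because the table holds only called genes, short genes lie mostly below 0 and long genes above it, and each cascade gene lies on the side taken by most genes within 10% of its length.

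Among the 305 other genes within 10% of the length of MAPKKK19, 81.6% were lower, with a median log2 ratio of -1.31. Only 19 of them had a lower ratio than MAPKKK19 and 286 a higher one. For MAPKKK18 the 305 genes of like length were 81.0% lower with a median of -1.31, and 22 had a lower ratio. For MAPKKK17, 73.3% of 277 genes were lower, the median was -1.25, and 29 had a lower ratio. These ranks are a description only, since the 3 genes passed the filter through WT alone. Lower genes with the 12 WT reads of MAPKKK17 were also listed only with 0 to 3 reads in dss1(I). Among the genes of like length that were also within 2-fold of the WT level of each gene, 5 of 73, 9 of 80 and 9 of 54 genes lay lower than MAPKKK19, MAPKKK18 and MAPKKK17. MKK9 lay in the middle: of 270 genes of its length 73.0% were lower, the median was -1.26, 150 had a lower ratio and 120 a higher one. Of 202 genes of the length of MEKK2 only 6.93% were lower, the median was 1.16, and 34 had a higher ratio than MEKK2. Of the 68 of those at a like WT level, 4 had a higher ratio.

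**Figure D3:**
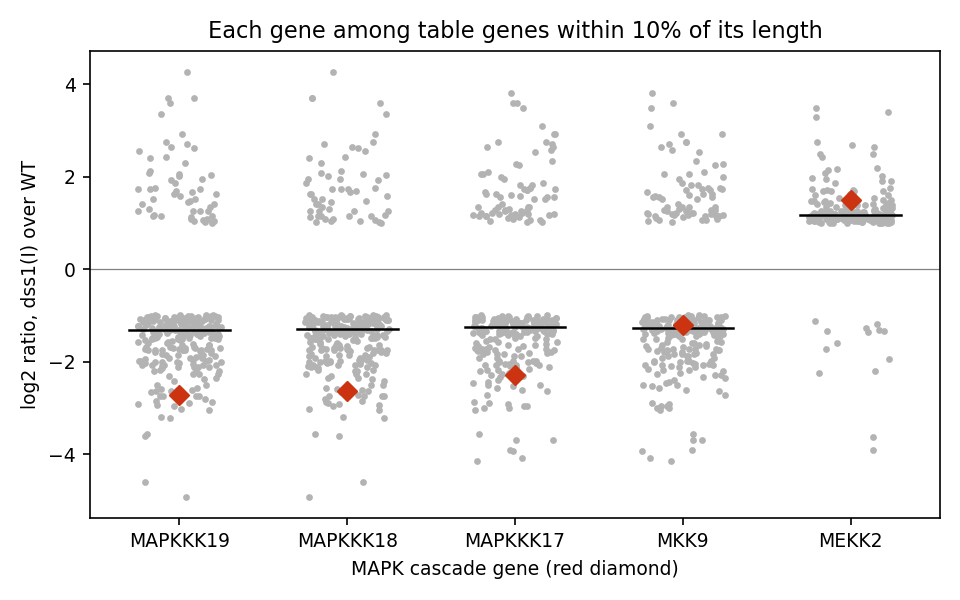
Log2 ratio of dss1(I) over WT for each MAPK cascade gene (red diamond) and for every other gene of the table within 10% of its length (grey points, spread sideways at random, black line at their median). The medians are between -1.25 and -1.31 for the 4 lower genes and 1.16 for MEKK2. Lower genes with the 12 WT reads of MAPKKK17 were listed only with 0 to 3 reads in dss1(I), which bears on where MAPKKK17 lies.

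The other 73 genes described as protein kinases that passed the filter went mostly the other way, with 18 lower, 55 higher and a median log2 ratio of 1.15. They are also longer, with a median of 2909 bp. Receptor kinases made up 34 of them, with 4 lower and 30 higher. Of the 5 no longer than MKK9, including the inhibitor SMR3, 4 were lower and 1 was higher, while all 4 cascade genes of that length were lower. The lower ones included SRK2F, a kinase of the SnRK2 family, with 74 reads in WT and 19 in dss1(I). SMR3, which inhibits cyclin-dependent kinases and is not itself a kinase, had 33 and 8.

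In the pathway list of 97 loci, 18 were in the table. Over all protein-coding genes 9.30% were in it with enough reads, and the list was drawn up with earlier results of these data known. Nothing is therefore read from the counts of listed genes above, in and below the cascade. None of the 20 MAPK genes was listed, MPK3, MPK4 and MPK6 included, so the cascade's last tier has no value here. For a gene outside the table, a level that did not change and a level too low to be called cannot be told apart. Of the 10 MAPK kinase genes 1 was listed, MKK9, and of the 20 MAPKKK genes 5, with 3 lower and 2 higher. The fifth was M3KE1, known from pollen development, whose description reads MAP3K and so lay just outside the rule. It had 319 reads in WT and 797 in dss1(I), or 344 and 739 scaled reads, with a counting interval of 0.91 to 1.30 for the log2 ratio, and at 8033 bp it is longer than every member. MAPKKK3, MAPKKK5, YDA, ANP1, ANP2 and ANP3 were among the MAPKKK genes that were not in the table.

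Above the cascade, 2 of 15 genes were listed. OXI1, a kinase induced by hydrogen peroxide that acts upstream of MPK3 and MPK6, had 153 reads in WT and 44 in dss1(I), a log2 ratio of -1.99. FLS2, the flagellin receptor, had 324 and 814, a log2 ratio of 1.11. AP2C1, a phosphatase that inactivates MAPKs, was the 1 of 8 phosphatases listed, with 296 reads in WT, 81 in dss1(I) and a log2 ratio of -2.07. OXI1, at 1675 bp, lies in an eighth of the table by length where 73.4% of genes were lower. FLS2, at 4250 bp, lies in the longest eighth, where 0.306% of genes were lower. AP2C1, at 1813 bp, lies in an eighth near an even split, where 151 genes, or 46.0%, were lower and 177 higher.

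Below the cascade, 9 of 24 genes were listed, with 8 lower, 1 higher and a median log2 ratio of -2.15. Over all protein-coding genes 9.30% were in the table with enough reads, and 51.5% of the table's genes were lower, but the list was drawn up with earlier results of these data known. WRKY33, a transcription factor phosphorylated by MPK3 and MPK6, had 1067 reads in WT and 381 in dss1(I), a log2 ratio of -1.70. ACS6, an ethylene synthesis enzyme stabilised by MPK6, had 1396 and 272, a log2 ratio of -2.57. ERF6, another MPK3 and MPK6 substrate, had 239 and 78, and its relative ERF5 had 124 and 38. All 4 of these were lower, in a table that lists only genes called changed between these libraries, in either direction. WRKY53 was lower with 159 and 34 reads, the zinc finger factor ZAT10 with 491 and 128, and PR1, a marker of the salicylic acid response, with 318 and 47. ERF1B, an ethylene response factor, had 17 reads in WT and 0 in dss1(I). The 1 higher gene was CYP71A13, an enzyme of camalexin synthesis, with 13 reads in WT and 38 in dss1(I). Its log2 ratio was 1.27, with a counting interval of 0.39 to 2.36. Camalexin synthesis is among the outputs of WRKY33 and MKK9, and CYP71A13 and these 2 genes had opposite directions. CYP71A13 is 1 gene with few reads, so nothing about camalexin synthesis is read from this. Most of these 9 genes have lengths at which most of the table's genes were lower. By eighths of length, the share lower was 92.0% for PR1 and ERF1B and 83.8% for ERF5, ZAT10 and ERF6. It was 73.4% for WRKY53 and CYP71A13, and 46.0% for WRKY33 and ACS6. What part length has in these directions was not tested.

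**Figure D4:**
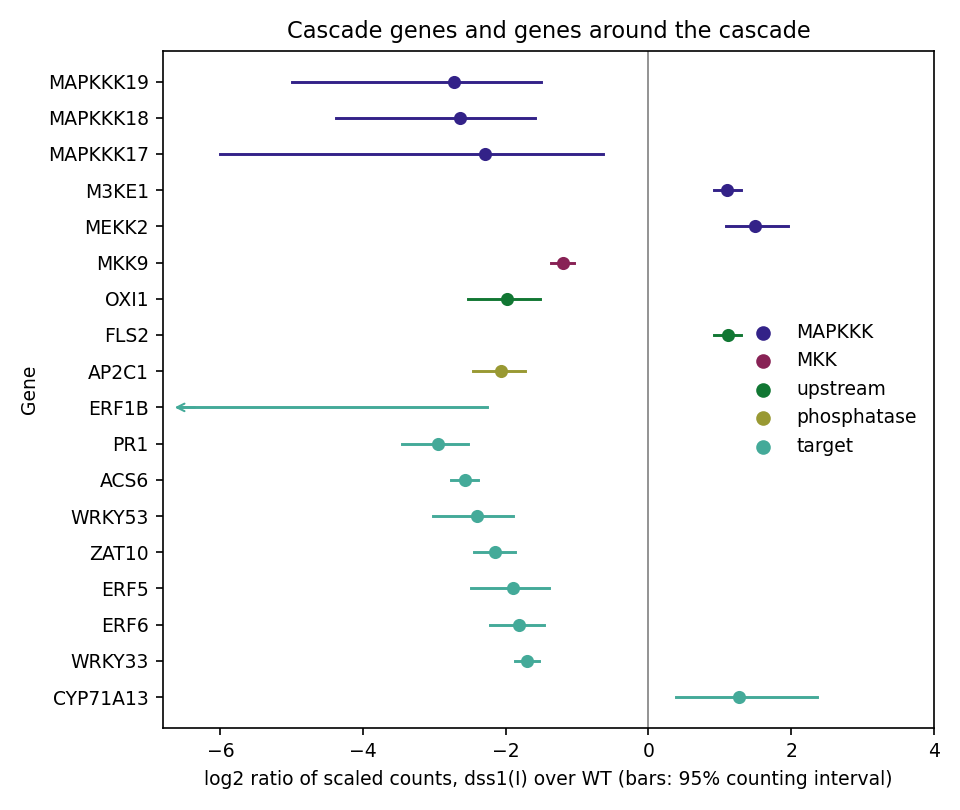
Log2 ratio of dss1(I) over WT with its 95% counting interval for the 18 listed genes of the pathway list, coloured by position in the cascade. MAPKKK17, MAPKKK18, MAPKKK19, MKK9, OXI1, AP2C1 and 8 targets lie below 0, MEKK2, M3KE1, FLS2 and CYP71A13 lie above it, and ERF1B, with 0 reads in dss1(I), is drawn as an arrow from its upper limit.

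The gene whose levels were most like those of each member was the one nearest in log2 scaled count over the 2 libraries, a likeness over 2 points only. For MAPKKK19 this was BAC2, with 30 reads in WT and 4 in dss1(I), and for MAPKKK17 it was OFP8, with the same 12 and 2 reads. AT5G50550 had the same 37 and 6 reads as MAPKKK18, and AT2G41830 the same 59 and 196 as MEKK2. The nearest to MKK9 was AT1G13360, with 947 and 511.

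Other measures in the same libraries stood beside these ratios. DSS1(I) had 807 reads in WT and 233 in dss1(I), the direction of its label, and its homologue DSS1(V) had 73 and 21. The log2 ratios were -2.005 for DSS1(I) and -1.961 for DSS1(V), which is not the gene edited in this line. Both genes lie in an eighth by length where 92.0% of genes were lower. The lower level of DSS1(I) is therefore no check of the genotype. The peroxide response genes ZAT12, APX2 and GSTU24 were 3 of 3 lower in dss1(I), with 458 and 105, 11 and 1, and 2926 and 1338 reads in WT and dss1(I). Most listed genes of these lengths were lower too. By eighths of length, the share lower was 92.0% for ZAT12 and APX2 and 83.8% for GSTU24. What part length has in their shared direction was not tested. Of 4 shoot markers and 3 root markers, 0 were in the table, so these lists give no check of the makeup of the seedlings. A further 5 genes known from root hairs were all higher in dss1(I). They were chosen by hand after their values were seen, so their shared direction is no check of the makeup either. RHS13 had 0 reads in WT and 27 in dss1(I), PRP1 had 1 and 22, PRP3 had 9 and 74, LRX1 had 4 and 26, and LRX2 had 5 and 167. These 5 genes, picked with their values known, lay on the other side from the 4 lower cascade genes, while the 3 root markers above have no value here. What part a different share of root tissue has in the cascade genes' ratios was not tested. In such whole seedlings, fewer cells of a type and less RNA per cell cannot be told apart.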

How the data were processed

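Of the 3 series samples, the libraries of dss1(I) and WT were used. Per the labels and methods, the authors used fastp to filter reads, HISAT2 as the aligner, featureCounts for gene counts and edgeR to call genes. The authors deposited 1 table of called genes with raw read counts, a scaled count per library (a normalised signal), FPKM values, and the gene length as another column. Its columns of fold change, p-value and adjusted p-value were not used. 0 per-sample columns were left out. The table holds 10.7% of WT and 9.49% of dss1(I) reads, with library totals recovered from FPKM.

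Log2 ratios used a pseudocount of 1 on scaled counts, and exact Clopper-Pearson 95% intervals came from read counts. Named genes were all members, all pathway-list genes in the table, and the nearest gene to each member. The members and lists were chosen with earlier results of these data known. No test was run, since 1 library per genotype leaves no residual spread. Annotated nuclear positions in TAIR10.1 equalled those of the table for 2744 of 2744 matched genes. Proteins were aligned with Biopython 1.88, and calculations used Python 3.11.15, numpy 2.4.6, pandas 2.3.3 and scipy 1.17.1. The ratio calculation was tested on simulated data with higher mean levels than MAPKKK17, MAPKKK18 and MAPKKK19 had in dss1(I). It therefore does not bear on the ratios of these genes.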

Additional observations from a re-analysis of the deposited data

How the results depend on the processing

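Across 6 alternative scales and pseudocounts, 28 of 30 member ratios stayed within their counting interval and none changed sign. At few reads these intervals are wide, so staying within them shows little. With a pseudocount of 5, MAPKKK17 moved from -2.29 to -1.39 and MAPKKK19 from -2.73 to -2.02, both within their intervals. Scaling by the median ratio over the table's genes raised their median log2 ratio by 1.02, and MKK9 came to -0.18 and MEKK2 to 2.52. That scaling assumes that most called genes did not change, and it left 343 of the table's genes lower and 1271 higher. With a minimum of 50 scaled reads, 1 member was lower, and at a log2 ratio of at least 2, 0 were higher. Among the 50 genes nearest in length, the share lower was 74% for MAPKKK19, 72% for MAPKKK18, 54% for MAPKKK17, 46% for MKK9 and 2% for MEKK2, and within 25% of the length it was 11.5% for MEKK2. The cause of these shifts was not tested. No paired analysis was possible because there is a single library of each genotype and no result comes from a test. Read depth limits MAPKKK17, MAPKKK18 and MAPKKK19, with 2 to 6 reads in dss1(I).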
